A study of Saccharomyces cerevisiae with 6 samples.

Results

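Chromosome V of the budding yeast *Saccharomyces cerevisiae* was followed through early S phase, together with ARS501 (also named ARS522), the late-firing replication origin close to its right end. Its members were chosen by position alone and were the 577 windows of 1 kb on chromosome V, of 12070 windows over the 16 chromosomes that do not overlap one another. A relative copy number in all 4 S phase profiles was given for 558 of the 577 windows and for 11509 of the 12070. The 19 windows without one lay in 4 runs, at 3001 to 6000, 444001 to 449000, 493001 to 498000 and from 571001 to the right end at 576869 (all coordinates in the SacCer2 build). ARS501 was taken as the window 549001 to 550000 and 1 window on each side, so that it spanned 548001 to 551000 and lay 27.4 kb from the right end of the chromosome.

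Wild type carried *Pol2-3HA::KAN* and the mutant *pol2-REL-3HA::KAN*, so both genotypes had the 3HA tag on Pol2, the catalytic subunit of DNA polymerase ε. The *pol2-REL* allele changes 3 amino acids at the edge of the Pol2 catalytic core, and the study asked how that region serves DNA replication. Both strains were derivatives of W303 with a functional *RAD5*, each genotype being 1 strain. Cells were grown in YPD at 24 °C, arrested in G1 with alpha factor, released with pronase and collected in G1 and at 30 and 40 min, with 1 library per condition. No condition thus had a replicate, no test was run and no p-value is given. Intervals are 95% intervals from counting error alone and do not cover the variation between cultures.

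In yeast, each chromosome is copied from many origins, which fire at characteristic times in S phase and send forks in both directions. Copied DNA is present in extra copies, and S phase reads divided by G1 reads therefore form peaks at origins that have fired and valleys where forks from neighbouring origins have yet to meet. ARS501 is a classical late origin. Its late firing is known to depend on its chromosomal position near a telomere, since the same sequence fires early on a circular plasmid.

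The relative copy number is the S phase over the G1 read count of a window, multiplied by 1 factor per profile so that chromosome V has a mean of 1. It therefore shows how a locus compares with the rest of the chromosome, and not how far replication of the whole chromosome has gone. Wild-type reads on chromosome V numbered 1583065 in G1, 1895812 after 30 min and 1394052 after 40 min. The corresponding *pol2-REL* numbers were 931973, 1438040 and 1562564. The median window of the 558 had 1656 reads in the smallest library and 3291 in the largest, which gives a counting error of 2.46% and 1.74%. Neighbouring windows differed by 1.33 to 1.47 times what counting error gives, so the intervals understate the scatter along the chromosome.

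Chromosome V had 12 maxima in the mean of the 4 smoothed profiles. These peaks started at 59001, 93001, 145001, 173001, 212001, 255001, 287001, 316001, 353001, 406001, 439001 and 497001. Neighbours were required to be 10 kb apart, and the prominence of each exceeded the counting error of the mean profile, 0.00574, by a factor of 4 or more. All 12 were at least 50 kb from both ends. The upper 6 by smoothed level at 30 min, averaged over both genotypes, were called early, and they were the peaks at 93001, 145001, 173001, 353001, 439001 and 497001. The other 6 are called later peaks. The peak at 497001 lay in a run without values, so that its level rests on the 1 window beside that run. Between neighbouring peaks lay 11 valleys, at 75001, 119001, 160001, 204001, 243001, 265001, 299001, 333001, 380001, 418001 and 462001. No peak was called at ARS501 in the mean profile or in any single profile, and the nearest was 52 kb away, at 497001.

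**Figure D1:**
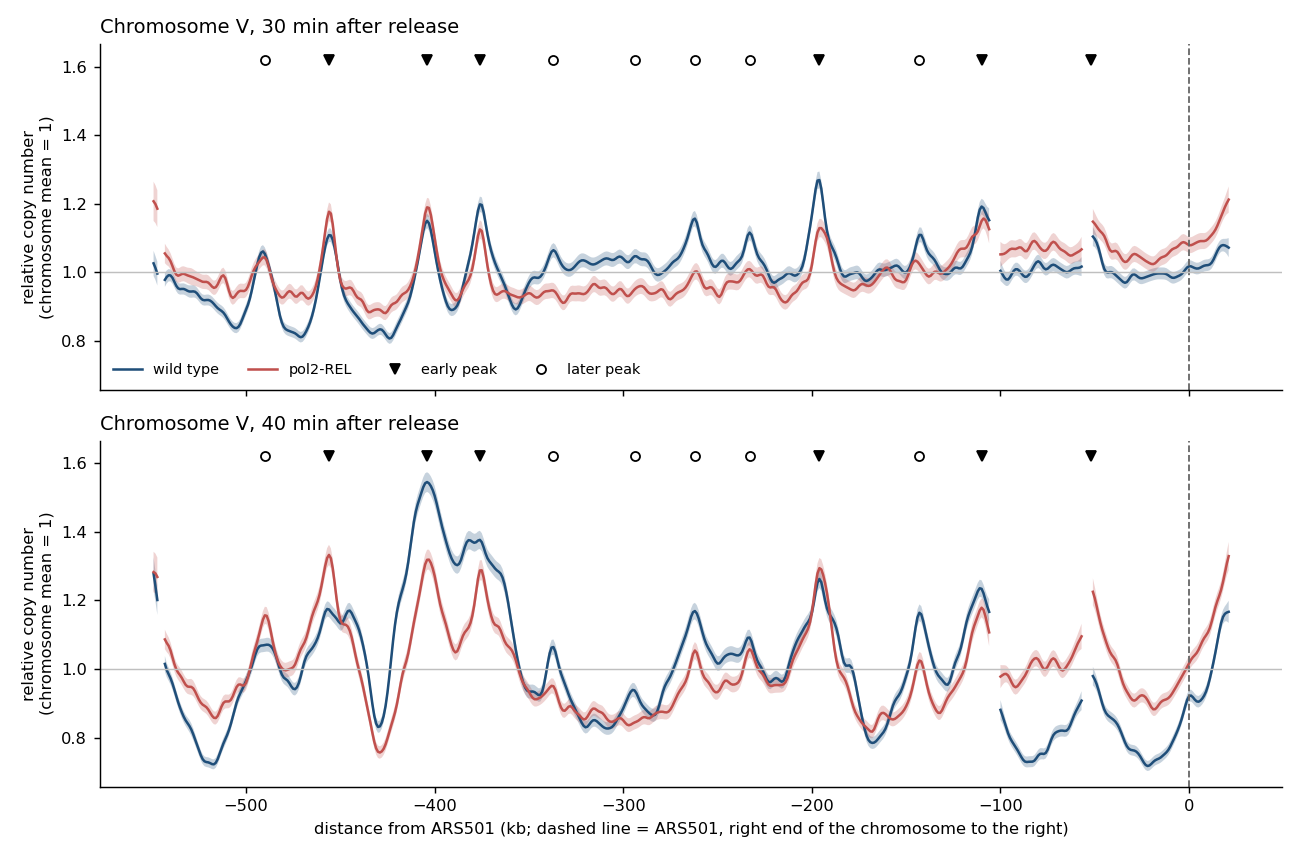
Smoothed relative copy number along chromosome V (y axis, chromosome mean of 1) against the distance from ARS501 in kb (x axis) at 30 min (top) and 40 min (bottom) for wild type (blue) and *pol2-REL* (red), with bands for the 95% counting interval and gaps where windows have no value. Triangles mark the 6 early and circles the 6 later peaks. Wild type at 40 min reached 1.54 at the peak 404 kb left of ARS501, and its lowest value, 0.717, lay 22 kb left of ARS501.

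Called singly, the wild-type profiles had 12 peaks at 30 min and 12 at 40 min, and those of *pol2-REL* had 9 and 10. Every peak of a single profile lay within 3 kb of one of the 12 positions. In the *pol2-REL* profiles no peak passed the minimum prominence at 212001 and 255001 at either time, or at 406001 at 30 min. Both wild-type profiles had a peak at all 3 places. The wild-type level of the peak at 406001 was 1.15 at 30 min and 1.21 at 40 min, against 1.01 and 1.06 in *pol2-REL*. The minimum prominence differed between profiles with their counting error, from 0.0403 in wild type at 30 min to 0.0498 in *pol2-REL* at 30 min. The contrast in calls rests in part on this minimum. Smoothed wild type at 30 min stood at 1.04735 at 255001, over a low of 1.00663, which passes 0.0403 but not 0.0498. Smoothed *pol2-REL* had uncalled maxima near 212001 at 40 min and near 406001 at 30 min. The former had 0.950 at 212001, against 0.914 and 0.846 at the valleys 204001 and 243001. The latter reached 1.034 over a low of 0.988.

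The order of the peaks by level differed between profiles. In wild type at 30 min it was the early peak at 353001, with a level of 1.35 over 3 windows, followed by 173001 at 1.26 and 439001 at 1.23. In wild type at 40 min it was the early peak at 145001, with 1.56, followed by 173001 with 1.42 and 353001 with 1.31. In *pol2-REL* at 30 min the peaks at 145001 and 93001 stood at 1.26 and 1.26, closer together than their counting intervals. At 40 min in *pol2-REL* the peaks at 93001, 173001, 145001 and 353001 stood between 1.34 and 1.38, and their counting intervals overlapped. In each profile the valleys lay on average under the chromosome mean. Their wild-type means were 0.952 at 30 min and 0.913 at 40 min, and those of *pol2-REL* 0.934 and 0.901. The highest valley level of the 4 profiles was 1.30, at 160001 between the peaks at 145001 and 173001 in wild type at 40 min. The places of peaks and valleys were chosen on these same profiles, so their levels are a description.

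ARS501 stood close to the chromosome mean in all 4 profiles. Its 3 windows gave 1.05, 1.02 and 1.04 in wild type at 30 min and 0.950, 0.946 and 0.958 at 40 min. In *pol2-REL* they gave 1.113, 1.029 and 1.065 at 30 min and 1.02, 1.04 and 1.02 at 40 min. Behind them were 12761 reads in wild type at 30 min, 8678 in wild type at 40 min, 9397 in *pol2-REL* at 30 min and 9801 in *pol2-REL* at 40 min. The mean level was 1.03 (1.01 to 1.06) in wild type at 30 min and 0.951 (0.924 to 0.979) at 40 min, lower at the later time beyond counting error. In *pol2-REL* it was 1.07 (1.034 to 1.104) at 30 min and 1.03 (0.992 to 1.06) at 40 min, where the intervals overlap. With the wild-type G1 library as the reference, the *pol2-REL* levels were 1.003 and 0.962. Among the 558 windows of the smoothed profiles, ARS501 was above 61.5% in wild type at 30 min and above 36.4% at 40 min. In *pol2-REL* it was above 84.9% and 61.3%.

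Around ARS501 the wild-type profile was nearly level at 30 min and sloped at 40 min. In blocks of 5 kb, wild type at 30 min stayed between 0.980 and 1.02 from 25 kb left of ARS501 to 10 kb right of it. At 40 min the same blocks climbed from 0.725 at 20 kb left of ARS501 through 0.769 at 10 kb and 0.831 at 5 kb to 0.926 at ARS501 itself. They then stayed at 0.905 and 0.949 for the next 10 kb and rose to 1.17 in the outermost block, 20 kb to the right. ARS501 thus formed a shoulder between a low interior side and a high telomere side in wild type at 40 min. Further right, wild type at 30 min rose as well, to 1.07 at 15 kb and 1.09 at 20 kb. In *pol2-REL* the blocks at 30 min rose from 1.02 at 20 kb left to 1.08 at ARS501 and 1.205 at 20 kb right. This difference in slope depends on the G1 libraries. Around 569001 at 30 min, *pol2-REL* over wild type was 1.12 with a separate G1 library for each genotype. As a ratio of shares of chromosome V reads, without a G1 library, it was 0.987 (0.961 to 1.01). At 40 min in *pol2-REL* they climbed steadily, from 0.883 at 20 kb left to 1.01 at ARS501, 1.06 at 5 kb right and 1.31 at 20 kb right.

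**Figure D2:**
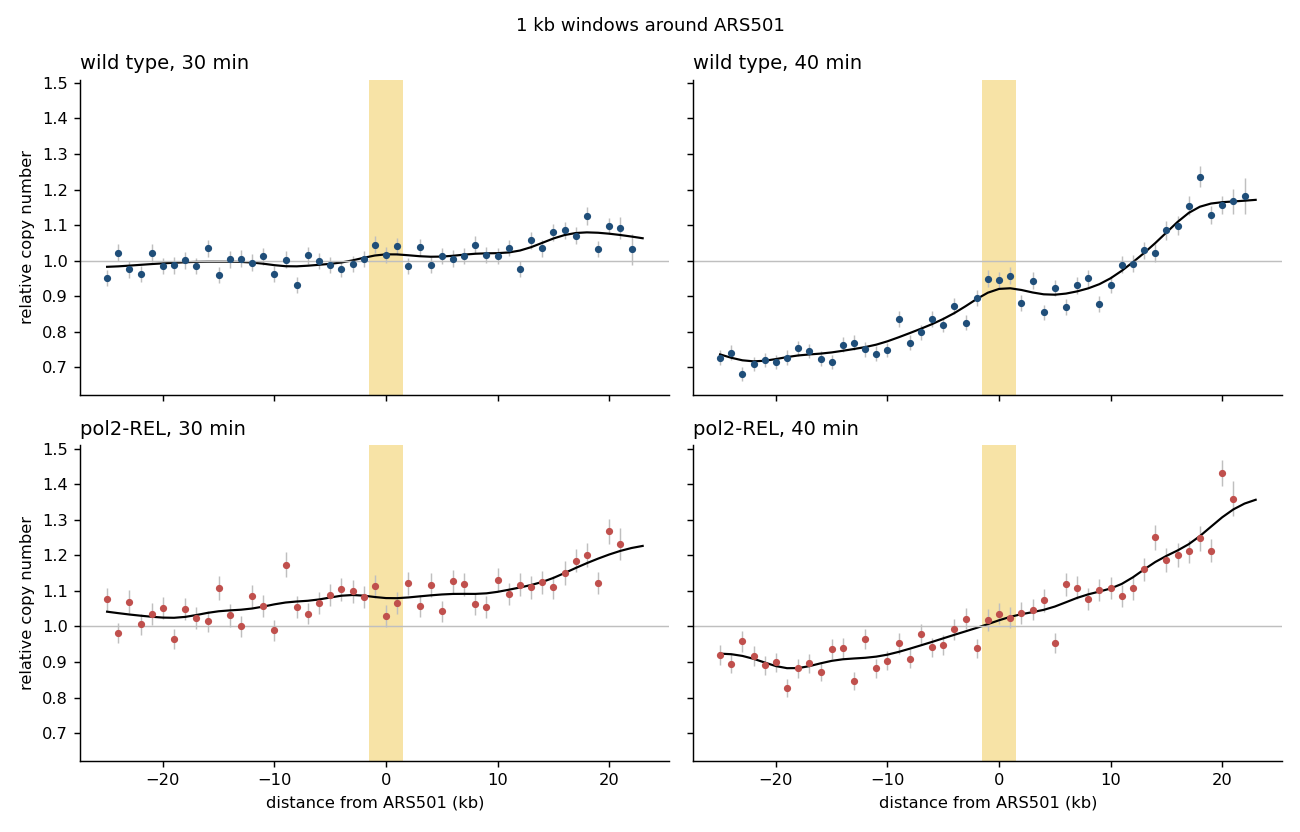
Relative copy number of single 1 kb windows (points, with bars of 1 counting error) and its smoothed form (line) against the distance from ARS501 in kb, for both genotypes (rows) and both times (columns), with the ARS501 windows shaded. In wild type at 40 min the line bends at ARS501, while in *pol2-REL* at 40 min it rises through ARS501 without a maximum.

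A small maximum lay within 3 kb of ARS501 in 3 of the 4 smoothed profiles, all under the minimum for a peak. Its prominence in wild type at 40 min was 0.0181, which is 1.66 times the counting error of that profile and under the minimum of 0.0435. In wild type at 30 min the prominence was 0.00675 and in *pol2-REL* at 30 min 0.00889, each under 1 counting error. The *pol2-REL* profile at 40 min had no maximum there.

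Height over flanks, the site over the mean of the windows 15 to 20 kb away on both sides, minus 1, was near 0 at ARS501. It was -0.0031 and 0.015 in wild type at 30 and 40 min, with intervals that include 0. In *pol2-REL* it was -0.031 at 30 min, with an interval that includes 0. At 40 min in *pol2-REL* it was -0.038 (-0.073 to -0.0032), an interval that excludes 0. With the wild-type G1 library as the reference this height was -0.022 (-0.052 to 0.0085). With the middle window alone it was -0.029 (-0.086 to 0.028), and both of these intervals include 0. At the 12 peaks the median height in wild type was 0.211 at 30 min and 0.198 at 40 min, and the *pol2-REL* medians were 0.131 and 0.246. The value at ARS501 depends on which flank is used, since the flank toward the telomere was higher than ARS501 and the interior flank lower. With the interior flank alone the height at 40 min was 0.302 (0.255 to 0.349) in wild type and 0.159 (0.112 to 0.206) in *pol2-REL*. At 30 min it was 0.042 and 0.033.

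Set against the early peaks of the interior, ARS501 was lower in every profile. At 30 min in wild type the 6 early peaks ranged from 1.13 to 1.35, with a mean of 1.22, and ARS501 stood at 0.851 of that mean (0.826 to 0.876). By 40 min the early peaks ranged from 1.02 to 1.56, and ARS501 was at 0.735 of their mean of 1.29 (0.712 to 0.759). The *pol2-REL* early peaks had levels of 1.16 to 1.26 at the earlier time and of 1.23 to 1.38 at the later one. ARS501 was at 0.889 of their mean (0.856 to 0.923) at 30 min and 0.774 (0.746 to 0.803) at 40 min. All 6 early peaks were above ARS501 in all 4 profiles, with either G1 library or their sum as the reference. The early peaks were chosen by their level at 30 min, so their place above ARS501 at that time describes the choice. Their positions were maxima of the mean of all 4 profiles, so the ratios at 40 min are not free of the choice either. The lowest early peak in wild type at 40 min was 497001, at 1.02 on 1 window, and its interval overlapped that of ARS501.

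The later peaks and the valleys gave a less even picture. In wild type all 6 later peaks were above ARS501 at both times, the closest at 40 min being 255001 with 0.960 against 0.951, a difference within counting error. In *pol2-REL* none of the 6 was above it at 30 min and 4 were at 40 min. These counts changed with the G1 library. Divided by the G1 library of *pol2-REL*, wild type had 3 of 6 above ARS501 at 30 min and 5 at 40 min. With the wild-type G1 library as the reference, 6 and 5 of 6 were above it in *pol2-REL*. With both G1 libraries summed, the counts were 4 and 5 for wild type and 3 and 5 for *pol2-REL*. ARS501 was above all 11 valleys in wild type at 30 min and in *pol2-REL* at both times, and above 8 of 11 in wild type at 40 min. The 3 valleys above ARS501 in that profile were 160001, 299001 and 418001, at 1.30, 0.997 and 0.970.

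**Figure D3:**
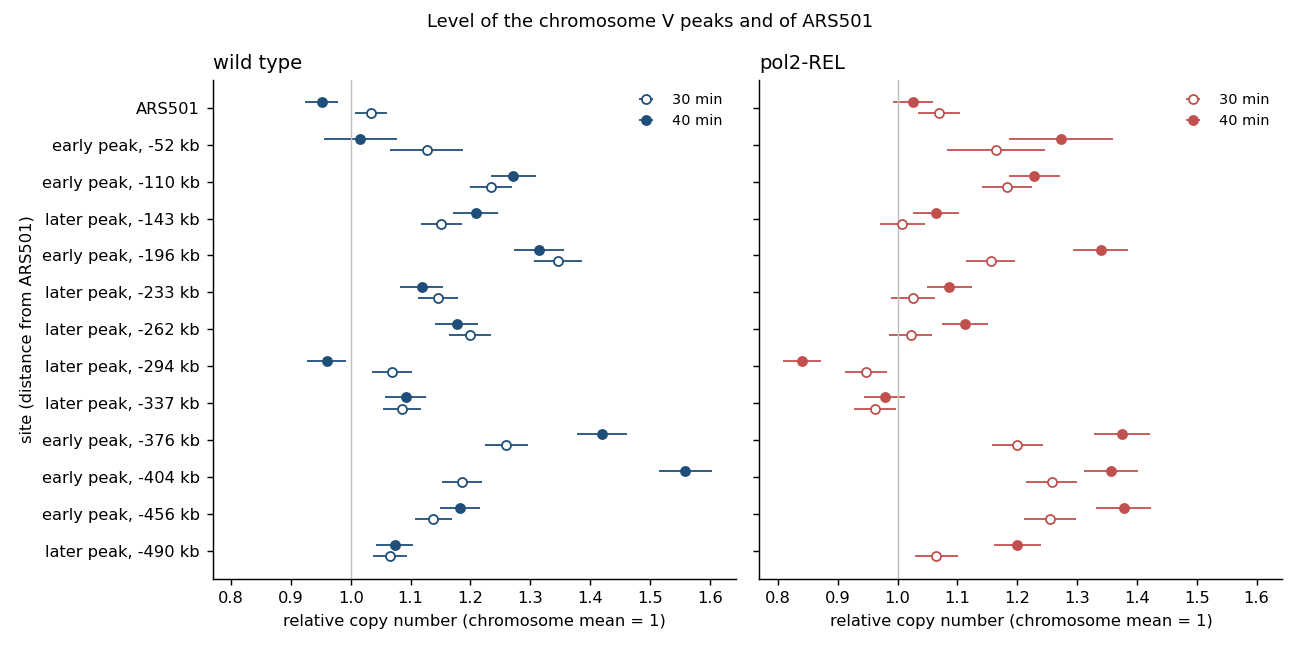
Relative copy number (x axis, chromosome mean of 1) of the 12 peaks and of ARS501 at 30 min (open) and 40 min (filled) in wild type (left) and *pol2-REL* (right), ordered by distance from ARS501, with 95% counting intervals. ARS501 lies to the left of all 6 early peaks in both panels and moves left from 30 to 40 min, while the early peak 404 kb away moves from 1.19 to 1.56 in wild type.

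From 30 to 40 min the relative copy number rose mostly left of the midpoint of chromosome V and fell mostly right of it, in both genotypes. This change was measured as log2 of the 40 min over the 30 min share of chromosome V reads, in which the G1 library cancels. In wild type 120 of the 558 windows (21.5%) were at least 1.1 times higher at 40 min in the smoothed profile, against 24.8% of all windows of the genome. Of these 120, 117 lay left of the midpoint and 3 right of it. Windows at least 1.1 times lower were 197 (35.3%) on chromosome V, against 33.9% over the genome, with 71 left and 126 right of the midpoint. In *pol2-REL* 114 windows (20.4%) were higher, against 15.1% over the genome, and 119 (21.3%) were lower, against 11.2%. Of those, 96 of the higher and 41 of the lower windows lay left of the midpoint.

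The largest rise in wild type lay around the early peak at 145001. The 41 windows between the valleys beside it held 6.75% of the chromosome V reads of wild type at 30 min and 9.24% at 40 min, a log2 change of 0.45. In *pol2-REL* they held 7.07% and 7.57%, a change of 0.099. The *pol2-REL* changes around the peaks at 93001 and 173001 were larger, 0.17 and 0.17. The wild-type peak itself went from 1.19 to 1.56, and the *pol2-REL* peak from 1.26 to 1.36. Beside it, the wild-type peak at 173001 went from 1.26 to 1.42 and that of *pol2-REL* reached 1.38, log2 changes of 0.18 and 0.20 whose intervals overlap. The valley at 160001 between them went from 0.889 to 1.30 in wild type, a change of 0.55 (0.51 to 0.59). In *pol2-REL* it went from 0.893 to 1.02, a change of 0.19 (0.15 to 0.24). The 3 smoothed windows with the largest rise in wild type were 156001 (0.59), 138001 (0.55) and 128001 (0.45), all on the slopes of the peak at 145001. Those in *pol2-REL* were 85001 (0.31) and 102001 (0.24), on either side of the early peak at 93001, and 181001 (0.27).

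The largest falls in wild type lay on the right, between the peak at 439001 and ARS501. The windows 467001, 527001 and 537001 had log2 changes of -0.48, -0.46 and -0.39 in wild type, and -0.084, -0.18 and -0.20 in *pol2-REL*. In *pol2-REL* the largest falls were at 381001, 120001 and 391001, with -0.24, -0.24 and -0.23. Among the valleys, the one at 462001 dropped from 0.976 to 0.711 in wild type, a log2 change of -0.45. Its *pol2-REL* level went from 1.04 to 0.968, a change of -0.10. From that valley to the right end the 104 windows with a value, ARS501 among them, held 21.3% of the wild-type chromosome V reads at 30 min and 18.0% at 40 min. The *pol2-REL* shares were 21.2% and 20.2%.

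At the peaks, the share of reads was higher at 40 min, with an interval above 0, at 5 of 12 peaks in wild type and lower at 2 of 12. In *pol2-REL* the share was higher at 10 of 12 and lower at 1, the later peak at 255001. Of all 558 windows, 44.6% in wild type and 44.4% in *pol2-REL* had a higher relative copy number at 40 min, intervals aside. Over the 12 peaks, wild type had a median change of 0.018 and *pol2-REL* one of 0.12. Of the 11 valleys, 2 were higher and 5 lower in wild type, and 3 were higher and 6 lower in *pol2-REL*. The early peak at 353001 had levels of 1.35 and 1.31 in wild type, within counting error of each other in share. In *pol2-REL* its levels were 1.16 and 1.34, a change of 0.21 (0.17 to 0.26). At 497001 the genotypes changed in opposite directions, with -0.14 (-0.22 to -0.062) in wild type and 0.13 (0.047 to 0.21) in *pol2-REL*, both on 1 window. The difference between the genotypes was not tested.

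**Figure D4:**
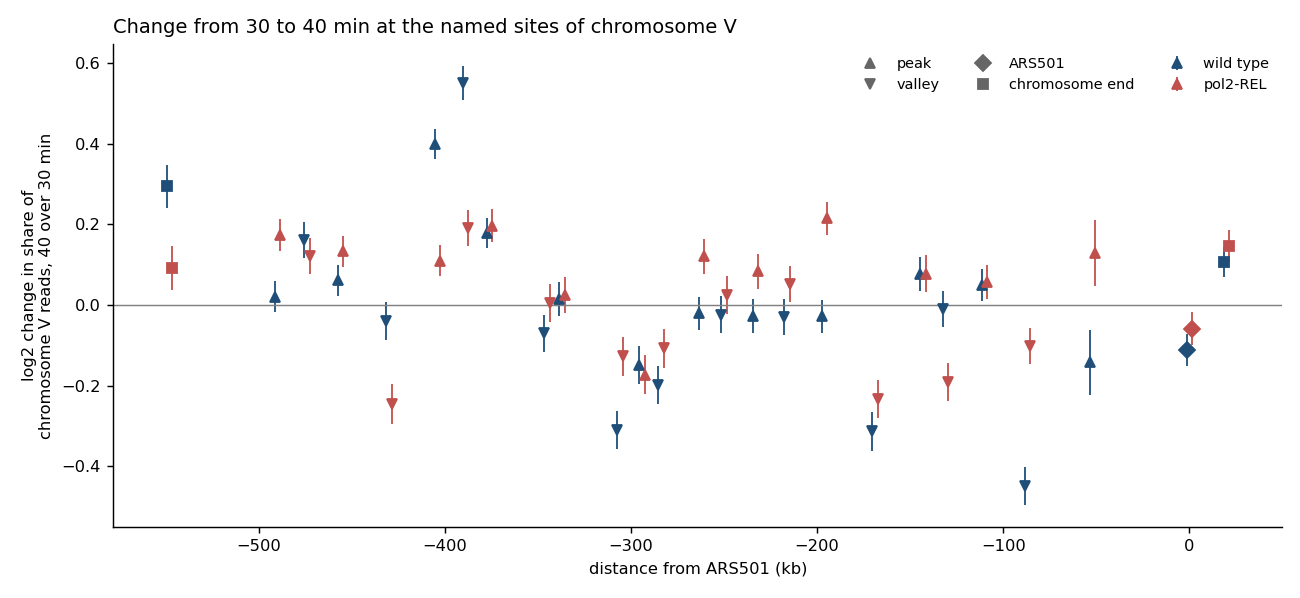
Log2 change in the share of chromosome V reads from 30 to 40 min (y axis) at the 12 peaks, 11 valleys, ARS501 and both chromosome ends against the distance from ARS501 in kb (x axis), for wild type (blue) and *pol2-REL* (red), with 95% counting intervals. The highest value, 0.55, is the wild-type valley 389 kb left of ARS501, the lowest, -0.45, the wild-type valley 87 kb left of it, and ARS501 lies under 0 in both genotypes.

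ARS501 held a smaller share of chromosome V reads at 40 than at 30 min in both genotypes. The log2 change was -0.11 (-0.15 to -0.073) in wild type and -0.059 (-0.10 to -0.018) in *pol2-REL*, so the share fell by 7.49% in wild type and fell by 3.99% in *pol2-REL*. The middle window alone had a change of 0.010 in *pol2-REL*, with an interval that includes 0. The loss was smaller at ARS501 than in the DNA to its left. In 5 kb blocks the wild-type change was -0.44 at 20 kb left of ARS501, -0.34 at 10 kb, -0.25 at 5 kb and -0.13 at ARS501. To its right it was -0.16 at 5 kb, -0.095 at 10 kb, 0.024 at 15 kb and 0.12 at 20 kb. In *pol2-REL* the change was -0.21 at 20 kb left, -0.099 at ARS501 and 0.12 at 20 kb right.

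Relative to its interior flank, ARS501 thus gained, and so did every 5 kb block from 5 to 20 kb to its right, in both genotypes. The gain was therefore not particular to ARS501. Counts at ARS501 over those of the windows 15 to 20 kb to the left, a ratio free of the G1 library and of any scaling, changed by 0.32 (0.27 to 0.37) in wild type and by 0.17 (0.11 to 0.22) in *pol2-REL* on the log2 scale. Over both flanks together the change was 0.014 (-0.030 to 0.058) in wild type and -0.016 (-0.061 to 0.030) in *pol2-REL*. This measure was added after the values had been seen. At the 12 peaks, over both flanks, it was above 0 with its interval at 4 peaks and below at 4 in wild type, and above at 7 and below at 1 in *pol2-REL*. In wild type it was highest at 439001, with 0.26, and lowest at 173001, with -0.28. In *pol2-REL* it was highest at 406001, also with 0.26, and lowest at 255001, with -0.058.

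The *pol2-REL* over wild-type ratio at ARS501 was 1.03 (0.991 to 1.08) at 30 min and 1.08 (1.03 to 1.13) at 40 min. It rests on 2 G1 libraries that differ in slope along chromosome V. In reads over the median window of the chromosome, ARS501 was at 1.25 in the wild-type G1 library and at 1.15 in that of *pol2-REL*. From 20 to 50 kb inside either end, the G1 depth over that of the DNA more than 200 kb from the ends came to 1.32 for wild type and 1.16 for *pol2-REL*. Without any G1 library, as the ratio of shares of chromosome V reads, *pol2-REL* over wild type at ARS501 was 0.971 (0.945 to 0.997) at 30 min and 1.01 (0.979 to 1.04) at 40 min. At 40 min the interval excluded 1 with a separate G1 library for each genotype and included it without a G1 library.

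**Figure D5:**
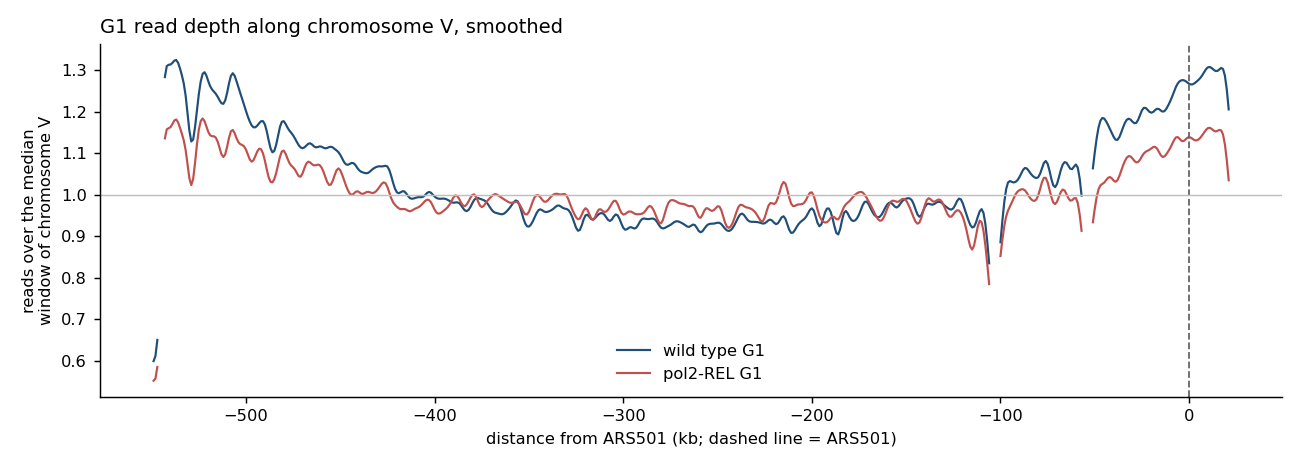
G1 reads of each window over those of the median window of chromosome V, smoothed (y axis), against the distance from ARS501 in kb (x axis), for wild type (blue) and *pol2-REL* (red). Both libraries are deeper toward the chromosome ends than in the middle, and wild type more so, with 1.25 at ARS501 against 1.15.

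At the peaks, *pol2-REL* was mostly lower than wild type at 30 min and mixed at 40 min. At 30 min 7 of the 12 peaks had a ratio of relative copy number below 1 with its interval and 2 had one above 1, and at 40 min 5 were below and 3 above. In shares of reads without a G1 library, 10 were below and 1 above at 30 min, and 6 below and 5 above at 40 min. The one above at 30 min was 145001, at 1.06, which at 40 min was the lowest of the 12, at 0.868. The later peak at 406001 was at 0.903 at both times. By height over flanks, which removes the slope of G1 depth in part, *pol2-REL* was lower at 11 of 12 peaks at 30 min. At 40 min it was lower at 4 of 12, both counts with intervals set aside. Some of these differences were within counting error, such as 0.361 in wild type against 0.357 in *pol2-REL* at 93001 at 30 min. The 6 later peaks had ratios of relative copy number from 0.852 to 1.00 at 30 min, the highest being 59001. At 40 min their ratios ranged from 0.876 to 1.12, and 5 of the 6 were under 1. Without a G1 library 3 of the 6 were under 1 at 40 min.

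Along the whole chromosome, *pol2-REL* was the lower genotype in 45.7% of the 558 windows at 30 min, against 52.6% over the genome, and in 50.7% at 40 min, against 49.3%. These shares depend on the scaling and are given with no interval, since neighbouring windows are not independent. At 30 min the share was 50.5% when both genotypes were divided by the same G1 library, 16.8% with a genome mean of 1 and 69.7% with the 10th percentile of the smoothed chromosome set to 1. At 40 min these last 2 scalings gave 27.4% and 72.8%. Windows at least 1.1 times higher in *pol2-REL* at 30 min were 31 (5.56%) on chromosome V, against 11.7% over the genome, and those at least 1.1 times lower were 59 (10.6%), against 8.16%. At 40 min 148 windows (26.5%) were higher, against 27.5%, and 133 (23.8%) were lower, against 23.7%. The lower windows lay mostly on the left at 40 min, 100 of 133, and the higher ones on the right, 114 of 148. Among the 12 peaks and 11 valleys, the valley at 462001 had the highest ratio at 40 min, 1.36 (1.30 to 1.43), and 1.32 without a G1 library. The valley at 160001 had the lowest, 0.787 (0.752 to 0.824), and 0.840 without a G1 library.

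The same distance from the left end as ARS501 has from the right, at 27001, levels were lower than at ARS501 in both genotypes. That site stood at 0.919 and 0.713 in wild type and at 0.968 and 0.899 in *pol2-REL* at 30 and 40 min. Its change in share was -0.36 (-0.40 to -0.32) in wild type and -0.11 (-0.15 to -0.065) in *pol2-REL*. The *pol2-REL* interval overlapped that of the change at ARS501, and the wild-type interval did not. The G1 depth at 27001 was 1.33 for wild type and 1.19 for *pol2-REL*, against 1.25 and 1.15 at ARS501. The outermost 3 windows with values rose at both ends. On the left, around 1001, the wild-type level went from 1.04 to 1.28 and the *pol2-REL* level from 1.202 to 1.29. On the right, around 569001, the wild-type level went from 1.07 to 1.15 and the *pol2-REL* level from 1.21 to 1.33. G1 depth at the left end was only 0.594 for wild type and 0.541 for *pol2-REL*. Genotype differences at the ends depend on the G1 libraries. Without a G1 library, *pol2-REL* over wild type was 1.08 at 30 min and 0.939 at 40 min on the left. On the right it was 0.987 (0.961 to 1.01) and 1.01 (0.987 to 1.04).

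At the same distance from the 30 other chromosome ends with values, the left end of chromosome V among them, the wild-type change had a median of -0.045 and ran from -0.41 to 0.45. The change at ARS501, -0.11, was above that of 14 of these 30. In *pol2-REL* the median was -0.031, the range -0.21 to 0.29, and ARS501 was above 12 of 30. ARS501 thus lay within the range of chromosome ends in both genotypes.

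The amplitude of chromosome V, the SD of its smoothed relative copy number over windows, was 0.0803 in wild type at 30 min and 0.181 at 40 min, and 0.0694 and 0.123 in *pol2-REL*. The *pol2-REL* over wild-type ratio was 0.865 (0.826 to 0.906) at 30 min and 0.678 (0.660 to 0.696) at 40 min. On the other 15 chromosomes this ratio had a median of 1.02 at 30 min, with a range of 0.709 to 1.31, and of 0.710 at 40 min, with a range of 0.492 to 1.17. Across the 558 windows the smoothed profiles of wild type and *pol2-REL* had a Pearson r of 0.576 at 30 min and 0.7003 at 40 min. Wild type at 30 and at 40 min had an r of 0.295, and *pol2-REL* at 30 and 40 min one of 0.629, each pair sharing a G1 library. These correlations are over neighbouring windows that share peaks and read depth, and they describe the 4 profiles.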

How the data were processed

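The authors mapped paired-end reads to SacCer2, left out repetitive sequences and deposited raw read counts per 1 kb window. The submitters' processing notes name cutadapt, BWA 0.7.8 and Picard 1.110. The sources used here do not say whether both mates or duplicates were counted. The deposited ratio columns hold S phase over G1 counts, that ratio scaled per chromosome, and a LOESS form of it. Its scaled form averages 1 on every chromosome, although the methods describe a genome-wide mean and a DNA content factor. On chromosome V the factors were 0.832, 1.13, 0.648 and 0.596 for wild type at 30 and 40 min and *pol2-REL* at 30 and 40 min. Kept windows had at least 602 reads.

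The windows, lists and measures were chosen with earlier results of these data known. Windows start every 500 bases, and those that do not overlap were used. Smoothing used a Gaussian kernel with an SD of 2 kb, and Poisson counting error was computed analytically. A valley was the lowest window between neighbouring peaks. Levels are means over 3 windows. Named sites were ARS501, all peaks and valleys, both ends, and the 3 windows with the largest rise and fall per genotype, at least 10 kb apart. Peak calling was tested on simulated data. Alternatives changed the G1 reference, scaling, window set, count filter, kernel, flanks, prominence and fold. The local change, the ratio of shares between genotypes and the early peaks without 497001 were added after the values had been seen. No genome or annotation of SacCer2 was used here, so genes and sequences are not named. Tools were SciPy 1.17.1, numpy 2.4.6, statsmodels 0.14.6, pandas 2.3.3 and matplotlib 3.10.9 under Python 3.11.15.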

Additional observations from a re-analysis of the deposited data

Results flagged for a closer look

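At the early peak at 497001 on chromosome V the genotypes changed in opposite directions from 30 to 40 min. The log2 change in the share of chromosome V reads was -0.14 (-0.22 to -0.062) in wild type and 0.13 (0.047 to 0.21) in *pol2-REL*. The difference itself was not tested, with 1 library per condition, and both values rest on the 1 window beside a run of windows without values.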

How the results depend on the processing

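ARS501 stayed under the mean of the early peaks in all 4 profiles under the 12 alternatives that kept early peaks, between 0.682 and 0.785 of it in wild type at 40 min. All of these kept peaks chosen by their level at 30 min, which largely fixes the direction at that time. The 10th percentile returned the same ratio, and a genome mean of 1 hardly moved it, to 0.850 from 0.851 in wild type at 30 min. Against all interior peaks ARS501 was at 0.969 in *pol2-REL* at 30 min, with an interval of 0.935 to 1.003 that includes 1. Its change from 30 to 40 min stayed under 0 in wild type in all 11 alternatives, from -0.18 to -0.095. In *pol2-REL* it did so in 10 of 11, and turned to 0.010 with the middle window alone. The alternatives of G1 reference and of the 10th percentile could not move this change, which holds no G1 count. The change relative to the interior flank stayed above 0 in both genotypes in all 12. Changing the G1 reference, scaling or count filter returned the same value of that ratio. Only the alternatives of window set, site and flanks could move it. Of all comparisons of an alternative with the reported value that answer a question of the design, 128 stayed within the interval of the reported value or 1.5 times a count, 54 moved and 8 turned. The 128 include comparisons in which the alternative could not move the value.

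With the G1 library of *pol2-REL* as the reference for both genotypes, the wild-type ARS501 level at 40 min was 1.01, its ratio to the early peaks 0.785, and the *pol2-REL* over wild-type ratio at ARS501 0.971 at 30 min and 1.01 at 40 min. The amplitude ratios were then 0.818 and 0.698. With the wild-type G1 library, the *pol2-REL* level was 0.962, the genotype ratios 0.971 and 1.01, the amplitude ratio at 30 min 0.774 and the windows lower in *pol2-REL* at 40 min 46.2%. With both G1 libraries summed, the *pol2-REL* level was 0.985, the wild-type ratio to the early peaks 0.762, the genotype ratios 0.971 and 1.01 and the amplitude ratio at 30 min 0.765. With any shared G1 reference, 50.5% of windows were lower in *pol2-REL* at 30 min.

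With a genome mean of 1, the wild-type level at 40 min was 0.867, the genotype ratios 1.13 and 1.18, the windows lower in *pol2-REL* 16.8% and 27.4%, and the amplitude ratios 0.948 and 0.739. With the 10th percentile of the smoothed chromosome set to 1, the levels at 40 min were 1.22 and 1.19, the genotype ratios 0.984 and 0.979, the windows lower in *pol2-REL* 69.7% and 72.8%, and the amplitude ratios 0.823 and 0.615. With no filter on counts the amplitude ratio at 40 min was 0.737, and with a 4 kb kernel 0.654.

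With 3 windows on each side, wild type at 40 min had a level of 0.915, a height of -0.024 and 0.707 of the early peaks. The highest window of the mean profile within 5 kb was 554001, toward the telomere. With the site moved there, wild type had a level at 40 min of 0.883, or 0.682 of the early peaks. Its change was then -0.18 and its local change 0.22. The *pol2-REL* height at 40 min was 0.015, and the genotype ratios were 1.09 and 1.19. The height at 40 min was 0.083 in wild type with flanks 10 to 15 kb away, and 0.302 and 0.159 with the interior flank only. The *pol2-REL* local change was 0.23 with the middle window alone and 0.11 with windows 500 bases further on. Against all interior peaks, ARS501 was at 0.793 and 0.865 at 40 min, and without the peak at 497001 at 0.705 in wild type.

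At 1.2 times, 83 windows were higher and 110 lower in wild type from 30 to 40 min, and 10 were higher and 0 lower in *pol2-REL*. Between genotypes 0 and 0 passed at 30 min, and 80 higher and 35 lower at 40 min. The share over the genome was counted at 1.1 times only, so the counts at 1.2 times have no background beside them. Cause was not tested for any of these. No paired analysis was possible because each condition had 1 library and no replicate numbers. Depth limits differences between sites to about 3% per site, and the spread between cultures is not covered.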
